A study of Mus musculus with 30 samples.

Results

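The RNA of 10 genes of bone morphogenetic protein (BMP) signalling was followed, and signalling activity itself was not measured. They include the ligands *Bmp2*, *Bmp4* and *Bmp7* and the inhibitor of differentiation genes *Id1*, *Id2*, *Id3* and *Id4*. The others are the inhibitory Smads *Smad6* and *Smad7* and the homeobox gene *Msx2*. The 10 genes were taken by symbol from a count table of 25400 genes. All 10 were among the 16582 genes that passed the filter on low counts. The table holds 24 RNA-seq libraries of mouse neural progenitor cells (NPCs), harvested at day 8 of in vitro neuronal differentiation of embryonic stem cells (ESCs), with 3 libraries for each of 8 lines. The 8 lines were WT, *Mbd3* KO, and *Mbd3* KO expressing MBD3a, MBD3dMBD (MBD3 without its methyl-CpG-binding domain, MBD), MBD2a, MBD2a-GR (MBD2a without its glycine-arginine stretch), MBD2aR181C (a point mutation in the MBD that abolishes binding to methylated CpGs) or MBD2t (the isoform truncated before the coiled coil). MBD2 and MBD3 are alternative subunits of the NuRD chromatin remodelling complex, and the comparisons ask which construct brings NPCs without MBD3 back to the WT state. All lines came from the same ESC background, a cross of 129 and C57BL/6 with the biotin ligase BirA. The constructs were driven by the CAG promoter from 1 genomic site, in cells that keep endogenous *Mbd2*. The libraries of a line were separately derived clones, except that the 3 MBD2t libraries were a triplicate of 1 clone. The spread within MBD2t therefore leaves out differences between clones, and its comparisons rest on that clone. The MBD2aR181C columns are headed R64C in the table and the study's text writes R191C; the name of the labels is used here.

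BMP ligands are secreted dimers that bring type I and type II receptor kinases together. The receptors phosphorylate Smad1, Smad5 and Smad9, which join Smad4 and activate target genes. The Id genes are among the most direct of these targets. Their proteins bind E proteins such as Tcf3, Tcf4 and Tcf12 and keep them from pairing with proneural factors, and in the developing nervous system they are known for holding progenitors back from neuronal differentiation. Smad6 and Smad7 are themselves induced by the pathway and feed back on the receptors, Smad7 also on those of TGF-beta. Msx2 is a transcription factor of the BMP response in the dorsal neural tube, neural crest and limb.

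Totals ran from 27993858 to 49392806 counts per library, so that 3 counts correspond to 0.0607 to 0.107 CPM, the counts scaled to library totals after TMM scaling. *Mbd3* reads were not lost from the *Mbd3* KO libraries, at 34.2, 73.8 and 69.1 CPM against 149 to 157 in WT (log2 fold change -1.38, adjusted p = 0.000283, edgeR), and rose with the constructs to 168 to 198 CPM in MBD3a and 423 to 496 in MBD3dMBD. *Mbd2* stood at 253 to 700 CPM in MBD2a-GR, MBD2aR181C and MBD2t, but at 67.0 to 87.2 CPM in the libraries labelled MBD2a, against 64.2 to 70.9 in *Mbd3* KO (a difference of 0.26 on the log2 scale, interval -0.18 to 0.70, adjusted p = 0.508, edgeR). The counts therefore do not show the construct in the libraries labelled MBD2a, and every difference below that rests on them carries this limit. By Western blot of the ESC lines, the paper reports equal protein levels of MBD2a and MBD2a-GR. That is protein before differentiation, and protein was not measured in these libraries. The summed level of 6 neural progenitor markers (*Pax6*, *Nes*, *Fabp7*, *Hes5*, *Neurog1* and *Neurog2*) was 64.8 to 152 CPM in *Mbd3* KO, MBD2a and MBD2t libraries and 441 to 891 CPM in the other 5 lines, so the labelled cell type was far less evident in the first 3. Of 5 pluripotent markers, the sum was 219 to 671 CPM in those 3 lines and 20.1 to 286 CPM elsewhere. The sum of 5 trophoblast markers was 38.6 to 339 against 8.16 to 47.1 CPM. In bulk RNA, fewer cells of a type and less RNA per cell cannot be told apart, here and in every comparison below.

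The promoters of *Id2*, *Id3*, *Id4* and *Msx2* are shown first, because these 4 genes were lower together in *Mbd3* KO, MBD2a and MBD2t. Each is the 250 bases upstream of the RefSeq start on GRCm38.p6, on the strand of the gene, with capitals for matches on either strand to GGCGCC, the core of the GC-rich Smad site of Id promoters, or to GTCTG, a Smad-binding element that reads CAGAC on the other strand.
*Id2*, chr12:25096093-25096342, minus strand: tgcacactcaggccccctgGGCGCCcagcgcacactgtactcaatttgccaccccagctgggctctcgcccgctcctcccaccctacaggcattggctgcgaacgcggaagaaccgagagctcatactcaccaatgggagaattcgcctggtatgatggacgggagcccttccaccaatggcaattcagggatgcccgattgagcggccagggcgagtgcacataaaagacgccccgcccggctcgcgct
*Id3*, chr4:136143572-136143821, plus strand: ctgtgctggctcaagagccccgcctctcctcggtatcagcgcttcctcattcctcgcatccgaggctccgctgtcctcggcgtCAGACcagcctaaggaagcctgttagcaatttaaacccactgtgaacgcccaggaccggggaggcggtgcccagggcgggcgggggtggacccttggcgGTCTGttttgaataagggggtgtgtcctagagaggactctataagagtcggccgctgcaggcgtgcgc
*Id4*, chr13:48260866-48261115, plus strand: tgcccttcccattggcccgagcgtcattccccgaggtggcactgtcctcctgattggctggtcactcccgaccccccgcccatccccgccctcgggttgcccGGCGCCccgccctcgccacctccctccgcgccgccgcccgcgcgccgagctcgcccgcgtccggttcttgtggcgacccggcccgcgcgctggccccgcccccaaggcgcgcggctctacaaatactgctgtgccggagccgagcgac
*Msx2*, chr13:53472781-53473030, minus strand: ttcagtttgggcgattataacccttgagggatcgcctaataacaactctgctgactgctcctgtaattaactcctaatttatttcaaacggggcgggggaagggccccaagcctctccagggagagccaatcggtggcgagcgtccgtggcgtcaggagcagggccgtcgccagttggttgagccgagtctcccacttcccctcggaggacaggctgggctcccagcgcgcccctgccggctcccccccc

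*Id2* held GGCGCC at positions -231 to -226 and *Id4* at -148 to -143 from the start, *Id3* held GTCTG at -68 to -64 and, on the other strand, at -167 to -163, and the *Msx2* window held neither. Among 32851 RefSeq promoters cut in the same way, 9.59% held GGCGCC and 42.2% GTCTG. The compound site, GGCGCC followed after 5 bases by GTCT, was in 0.07% of them and in none of the 6 members whose sequence was used (*Bmp4*, *Id2*, *Id3*, *Id4*, *Smad6* and *Msx2*). No sequence was used for *Bmp2*, *Bmp7*, *Id1* and *Smad7*, so their promoters were not searched. The 4 windows shown were rich in CpG, the dinucleotide that the MBD of MBD2 reads when methylated. *Id4* had 35 CpGs, an observed over expected ratio of 1.05 that exceeded 96.3% of all promoters. The ratio was 0.744 for *Id2*, 0.732 for *Id3* and 0.676 for *Msx2*, against a median of 0.373. It was also above the median in *Smad6* (0.984) and *Bmp4* (0.451), so it does not set apart the genes that fell. These are letters in a window and no measurement of binding or methylation.

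Of the ligands, *Bmp7* was the most abundant, and it was lowest in MBD2a-GR. Per kilobase of exon, WT NPCs had 13 ± 2.33 CPM of *Bmp7*, 2.46 ± 0.424 of *Bmp4* and 1.07 ± 0.260 of *Bmp2* (SD, n = 3). *Bmp7*, which encodes a ligand of roof plate, kidney and eye development, lies at chromosome 2, 172693513 to 172765822, minus strand (NCBIM37, equal to mm9, the build of the counts). Its level was 54.3, 60.3 and 41.9 CPM in the WT libraries, 41.0, 60.2 and 69.1 in *Mbd3* KO, 37.2, 39.1 and 33.4 in MBD2a, and 29.1, 25.2 and 21.3 in MBD2a-GR. All MBD2a-GR libraries were below all MBD2a libraries, which were in turn below all libraries of the other 6 lines, where the range was 41.0 to 69.1 CPM. Against WT, *Bmp7* was lower in MBD2a-GR (log2 fold change -1.05, standard error 0.176, adjusted p = 0.00285, edgeR), and it was the only 1 of 10 members called there, beside 5.16% of all genes. A call means an adjusted p under 0.05 and a log2 fold change beyond 1 in either direction. This call was lost without library s18 of MBD2a-GR (-0.94), without library s02 of WT (-0.96), and when only the 6 libraries of both lines were fitted (-1.05, adjusted p = 0.132). Against *Mbd3* KO, the difference of *Bmp7* in MBD2a-GR was -1.17 (standard error 0.176, adjusted p = 3.08e-05, edgeR), called under all 14 alternatives.

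In the libraries labelled MBD2a, *Bmp7* differed from WT by a log2 fold change of -0.51 (95% interval -0.88 to -0.15, adjusted p = 0.0176, edgeR) and from MBD2a-GR by 0.54 (0.17 to 0.91, adjusted p = 0.0232), both short of the fold threshold. In *Mbd3* KO, *Bmp7* differed from WT by 0.12 with an interval of -0.24 to 0.48. The summed level of 5 mesenchyme and mesoderm markers was also lowest in these lines, at 8.02 to 12 CPM in MBD2a-GR and 8.64 to 12.5 in MBD2a against 20.8 to 156 CPM in the other 6. Of these markers, *Col1a1* and *Acta2* were called lower in MBD2a-GR, and *Mesp1* was at or under 3 counts in each library. Their part in the *Bmp7* result was not tested.

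*Bmp4*, which patterns the dorsal neural tube and blocks neural induction, was highest in the libraries labelled MBD2a, at 12.8, 7.92 and 10.0 CPM. WT had 5.82, 6.19 and 4.41 CPM, *Mbd3* KO 4.03, 8.23 and 8.09, and MBD2aR181C 4.48, 3.60 and 3.39. The MBD2a libraries lay above all WT libraries and all MBD2aR181C libraries but overlapped with *Mbd3* KO. The log2 fold change of *Bmp4* in MBD2a was 0.91 against WT (standard error 0.271, adjusted p = 0.00819, edgeR), short of the fold threshold, which it passed without library s14 (1.06) or s02 (1.01), and 1.42 against MBD2aR181C (standard error 0.278, adjusted p = 0.000409), which was called. *Mbd3* KO did not differ from WT beyond the spread (0.32, interval -0.25 to 0.89, adjusted p = 0.325). *Bmp4* lies at chromosome 14, 47003195 to 47010344, minus strand, and overlaps *Gm15217* and *Gm15222* on the other strand. *Gm15217* held 4 reads in all 24 libraries, and no count was obtained for *Gm15222*.

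*Bmp2*, a close relative of *Bmp4* with the same receptors, was the least abundant ligand, with 62 to 593 counts per library. It lies at chromosome 2, 133377895 to 133388621, plus strand. WT libraries had 3.70, 4.79 and 2.95 CPM and *Mbd3* KO libraries 5.12, 9.30 and 9.57. All KO libraries were above all WT libraries, but the difference did not pass (log2 fold change 1.08, standard error 0.500, adjusted p = 0.07, edgeR), and it was called under 3 alternatives, with only the 6 libraries of both lines, with upper quartile scaling and without KO library s04 (1.31, adjusted p = 0.0462). Only in MBD2aR181C, at 3.93, 2.20 and 2.33 CPM, was *Bmp2* called lower than in *Mbd3* KO among the 6 construct lines (-1.49, standard error 0.510, adjusted p = 0.0182). That call was lost without library s20, s21 or s06, at adjusted p = 0.0542, 0.0648 and 0.0509. Uncalled changes against *Mbd3* KO were -0.96 in MBD3a (adjusted p = 0.113) and -0.92 in MBD3dMBD (adjusted p = 0.116). They were -0.41 in MBD2t and -0.22 in MBD2a, and MBD2a-GR is given below.

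One library set the mean of *Bmp2* in MBD2a-GR. Its libraries had 4.76, 2.89 and 16.4 CPM, and the highest, s18, was above all other libraries of the series. With s18, *Bmp2* in MBD2a-GR differed from *Mbd3* KO by 0.01 on the log2 scale (interval -0.99 to 1.01, adjusted p = 0.989, edgeR), and without it by -1.07 (adjusted p = 0.0441). The summed level of 5 endoderm markers (*Gata4*, *Gata6*, *Sox17*, *Foxa2* and *Sox7*) was 671 CPM in s18 and 86.4 to 113 CPM in the other MBD2a-GR libraries. Among the libraries labelled MBD2a, the pair with 8.26 and 8.92 CPM of *Bmp2* had endoderm sums of 169 and 190 CPM, and the library with 3.36 CPM a sum of 57.5. All other lines lay between 39.0 and 94.8 CPM in these markers. The *Mbd3* KO libraries with 5.12, 9.30 and 9.57 CPM of *Bmp2* had endoderm sums of 42.7, 76.4 and 94.8 CPM, in that order. The part of endoderm markers in the *Bmp2* levels was not tested.

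**Figure D1:**
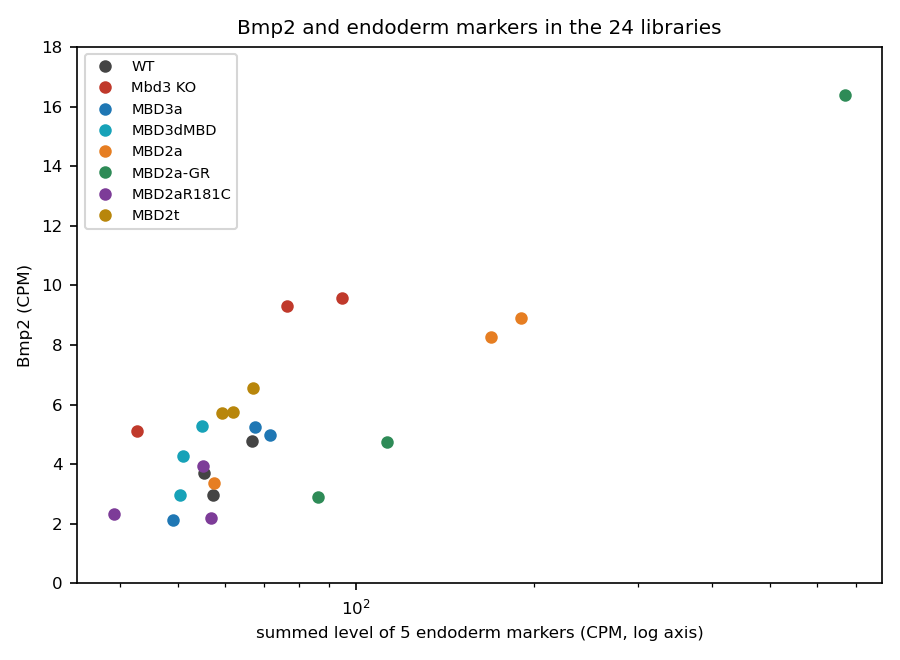
*Bmp2* (CPM) against the summed level of 5 endoderm markers (CPM, log axis) in the 24 libraries, coloured by line. The MBD2a-GR library s18 lies alone at 16.4 CPM of *Bmp2* and 671 CPM of markers. The *Mbd3* KO libraries have 5.12, 9.30 and 9.57 CPM of *Bmp2* at marker sums of 42.7, 76.4 and 94.8 CPM.

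**Figure D2:**
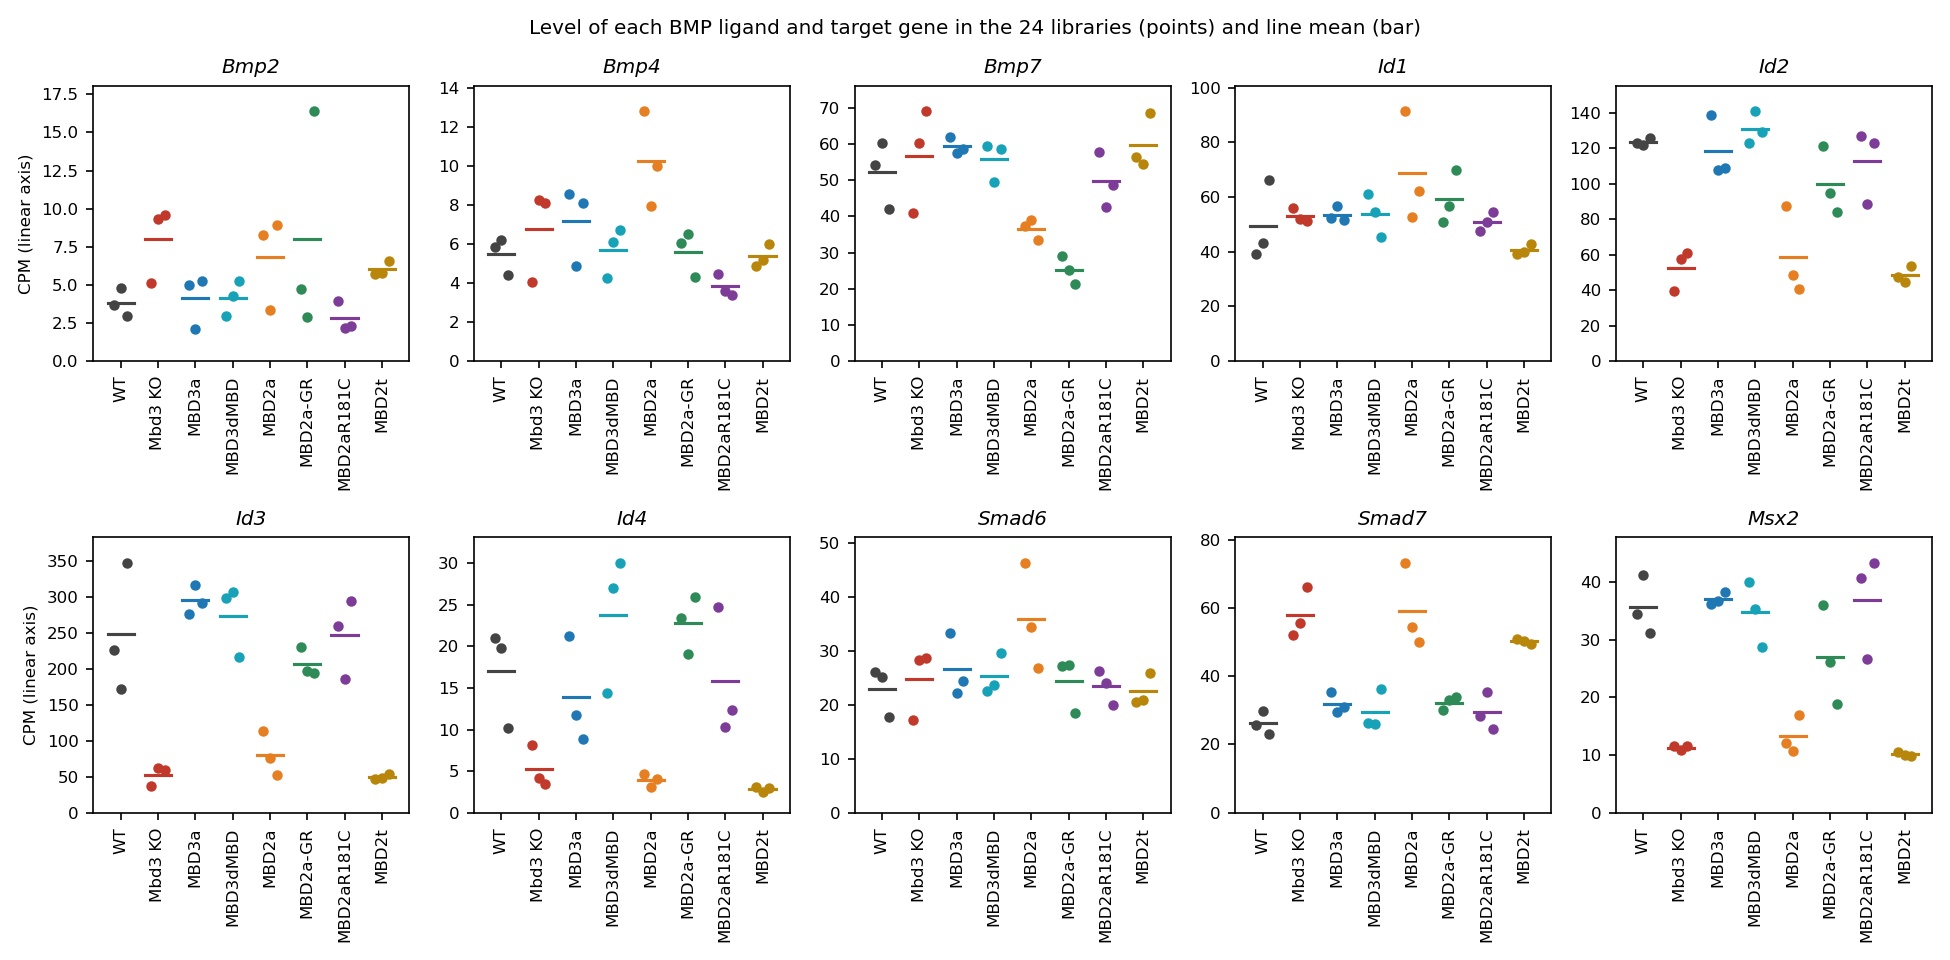
Level of each gene (CPM, linear axis) in the 3 libraries of each line (points) with the line mean (bar). *Id2*, *Id3*, *Id4* and *Msx2* are low and *Smad7* is high in *Mbd3* KO, MBD2a and MBD2t, *Bmp7* is lowest in MBD2a-GR, and 1 MBD2a-GR library has 16.4 CPM of *Bmp2*.

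Of the 4 Id genes, 3 fell in *Mbd3* KO NPCs and *Id1* did not. *Id3* fell most. This gene, at chromosome 4, 135699412 to 135701670, plus strand, had 226, 172 and 348 CPM in WT and 36.7, 61.6 and 59.2 CPM in *Mbd3* KO. The libraries did not overlap, and the difference on the log2 scale was -2.24 (standard error 0.276, adjusted p = 2.44e-06, edgeR). MBD2t had 46.7, 47.8 and 54.3 CPM of *Id3* and the libraries labelled MBD2a 113, 75.6 and 52.0, all below the lowest library of the 5 remaining lines, which was the WT library at 172 CPM. Against WT the change of *Id3* was -2.33 in MBD2t (adjusted p = 1.82e-06) and -1.63 in MBD2a (adjusted p = 7.08e-05).

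*Id2*, at chromosome 12, 25778666 to 25780957, minus strand, had 123, 122 and 126 CPM in WT and 39.3, 57.7 and 60.8 in *Mbd3* KO (log2 fold change -1.23, standard error 0.229, adjusted p = 0.000147, edgeR). It had 47.4, 44.6 and 53.8 CPM in MBD2t (-1.35, adjusted p = 6.43e-05) and 87.7, 48.3 and 40.4 CPM in MBD2a (-1.08, adjusted p = 0.000661). In the last case the library s13 stood above the other two, and the call was lost without s14 (-0.95), without s15 (-0.85) and with upper quartile scaling (-0.98). Unlike *Id3*, *Id2* overlapped between line sets, since the lowest MBD2a-GR library had 83.8 CPM.

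*Id4*, the least abundant of the family and expressed in neural stem cells, lies at chromosome 13, 48356796 to 48359405, plus strand, with *A330033J07Rik* annotated on the other strand, and without the strand setting of the counting their reads cannot be told apart. Its libraries had 21, 19.8 and 10.2 CPM in WT, 8.18, 4.12 and 3.49 in *Mbd3* KO, 4.66, 3.03 and 4.08 in MBD2a, and 3.10, 2.49 and 2.91 in MBD2t. The highest of the latter 3 lines, 8.18 CPM, was just below the lowest of the other 5, an MBD3a library at 8.92. Against WT the log2 fold change of *Id4* was -1.70 in *Mbd3* KO (standard error 0.403, adjusted p = 0.00135, edgeR), -2.11 in MBD2a (adjusted p = 0.000346) and -2.58 in MBD2t (adjusted p = 4.43e-05).

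*Id1*, the classical BMP response gene, at chromosome 2, 152561987 to 152563146, plus strand, had 39.1, 43.2 and 66.3 CPM in WT and 56.2, 52.1 and 51.1 in *Mbd3* KO. The KO libraries fell inside the WT range. The log2 fold change was 0.10 with a 95% interval of -0.29 to 0.50, which leaves out a fall of the size of the 3 other Id genes. In none of the 15 comparisons was *Id1* called. Its highest mean was in the libraries labelled MBD2a (91.5, 52.7 and 62.2 CPM), where the change against WT was 0.47 (interval 0.08 to 0.87, adjusted p = 0.0401, edgeR), and its lowest in MBD2t (39.1, 39.8 and 42.8 CPM; -0.29, adjusted p = 0.197). The make-up of the family changed accordingly. Per kilobase of exon, WT libraries had 96.0 to 194 CPM of *Id3*, 96.1 to 99.2 of *Id2* and 33.7 to 57.2 of *Id1*, so *Id1* stood apart below the others. In *Mbd3* KO, *Id1* had 44.1 to 48.4, *Id2* 30.9 to 47.9 and *Id3* 20.5 to 34.4 CPM per kilobase, with *Id1* overlapping *Id2* and above *Id3*. *Id4* was below all 3 in both lines, at 6.14 to 12.7 and 2.10 to 4.93.

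The inhibitory Smads parted in the same way. *Smad7*, at chromosome 18, 75527183 to 75555589, plus strand, was the member that rose in *Mbd3* KO. Its libraries had 25.6, 29.7 and 23.1 CPM in WT and 52.0, 55.7 and 66.0 in *Mbd3* KO (log2 fold change 1.15, standard error 0.164, adjusted p = 1.1e-05, edgeR). MBD2a had 73.3, 54.3 and 50.0 CPM (1.18, adjusted p = 1.44e-05) and MBD2t 50.8, 50.4 and 49.3 (0.94, adjusted p = 7.92e-05), the latter just short of the fold threshold and past it without WT library s02 (1.04). No library of these 3 lines was under 49.3 CPM and none of the other 5 lines over 36.1. *Smad6*, at chromosome 9, 63800953 to 63869866, minus strand, had 26.0, 25.2 and 17.7 CPM in WT and 17.2, 28.3 and 28.7 in *Mbd3* KO, which overlapped fully (0.11, interval -0.38 to 0.60, adjusted p = 0.704). Its highest mean was in the libraries labelled MBD2a (46.3, 34.3 and 26.7 CPM), which were above all WT libraries (0.64, adjusted p = 0.0276) but short of the fold threshold, and *Smad6* was called in none of the 15 comparisons.

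*Msx2*, at chromosome 13, 53562250 to 53568443, minus strand, had 34.4, 41.3 and 31.1 CPM in WT, 11.5, 10.8 and 11.6 in *Mbd3* KO, 12.1, 10.7 and 17 in MBD2a, and 10.6, 9.94 and 9.79 in MBD2t. The 9 libraries of the latter lines were below all others, of which an MBD2a-GR library was the lowest at 18.9 CPM. The log2 fold change of *Msx2* against WT was -1.66 in *Mbd3* KO (standard error 0.218, adjusted p = 4.73e-06, edgeR), -1.42 in MBD2a (adjusted p = 3.34e-05) and -1.82 in MBD2t (adjusted p = 1.97e-06).

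Counted together, 5 of the 10 members were called in *Mbd3* KO against WT (1 higher, 4 lower), where 33.8% of all genes tested were called, 19.6% higher and 14.2% lower. The median absolute log2 fold change was 1.11 for the members and 0.64 for all genes. In MBD2a 5 members were called (1 higher, 4 lower) beside 30.6% of all genes, and in MBD2t 4 members (all lower) beside 33.4%. A share of 4 or 5 in 10 is not far from these backgrounds. In MBD3a, MBD3dMBD and MBD2aR181C no member was called against WT by edgeR or DESeq2, and none had an unadjusted p under 0.05. The share of all genes called there was 0% in MBD3a, where 293 genes had an unadjusted p under 0.05 and DESeq2 also called 0, and 0.0181% in MBD3dMBD and in MBD2aR181C. For *Id3*, the interval of the log2 fold change against WT was -0.30 to 0.80 in MBD3a, -0.41 to 0.69 in MBD3dMBD, -0.56 to 0.54 in MBD2aR181C and -0.82 to 0.29 in MBD2a-GR. The 7 comparisons share the WT libraries. All 6 neural progenitor markers were called lower than in WT in *Mbd3* KO, MBD2a and MBD2t, 1 of them in MBD2a-GR and 0 in the other lines, and their part in the members' values was not tested.

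**Figure D3:**
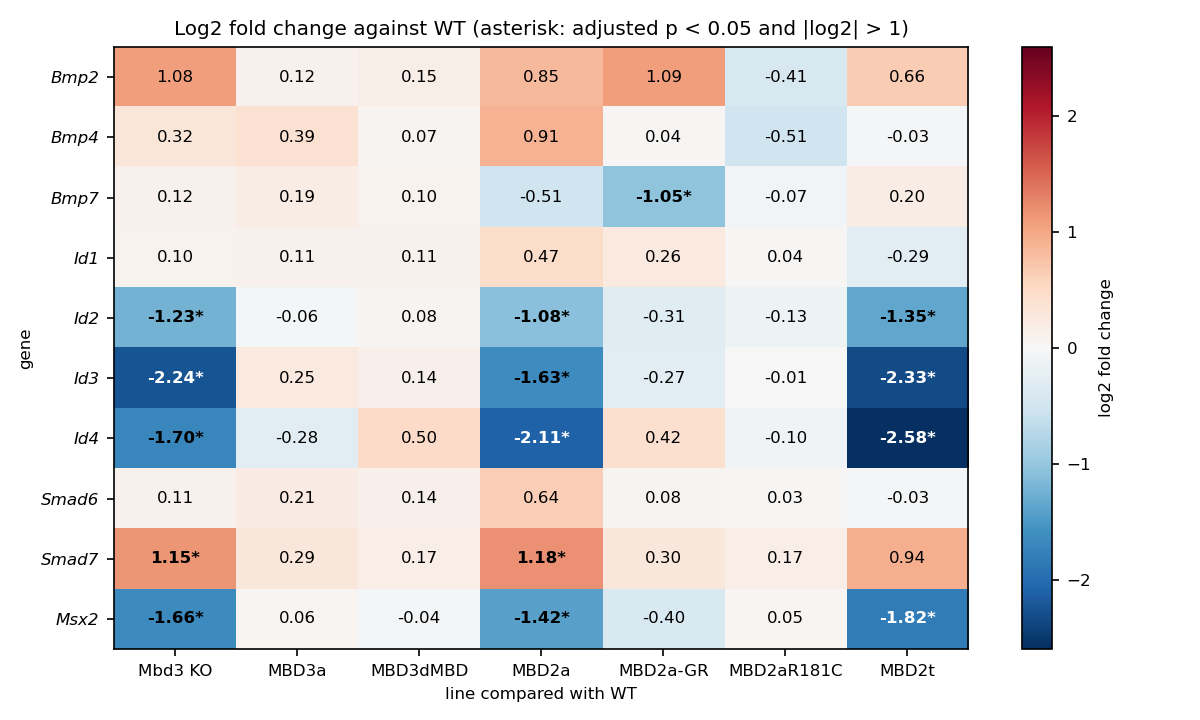
Log2 fold change of each gene (rows) against WT in the 7 other lines (columns), coloured from blue (lower) to red (higher), with an asterisk where the gene was called. *Id2*, *Id3*, *Id4* and *Msx2* carry an asterisk in *Mbd3* KO, MBD2a and MBD2t, *Smad7* in *Mbd3* KO and MBD2a, and *Bmp7* in MBD2a-GR.

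Against *Mbd3* KO, which is the parent of the construct lines, *Id3*, *Id4* and *Msx2* were called higher in MBD3a, MBD3dMBD, MBD2a-GR and MBD2aR181C. *Id3* was higher by a log2 fold change of 2.49 in MBD3a, 2.38 in MBD3dMBD, 1.98 in MBD2a-GR and 2.23 in MBD2aR181C (highest adjusted p = 1.43e-05, edgeR). For *Id4* the corresponding values were 1.42, 2.20, 2.13 and 1.60, of which the first was lost without MBD3a library s07 (0.97, adjusted p = 0.0647). For *Msx2* they were 1.71, 1.62, 1.26 and 1.71, of which the third was lost without MBD2a-GR library s16 (0.95). *Id2* was called in MBD3a (1.17), MBD3dMBD (1.31) and MBD2aR181C (1.1), the last of these lost without library s19 (0.97), without s04 (0.93) and with upper quartile scaling (0.98). In MBD2a-GR *Id2* had 121, 94.6 and 83.8 CPM, above all *Mbd3* KO libraries and below all WT libraries, with a change of 0.92 against *Mbd3* KO (adjusted p = 0.00268, called without s18 at 1.04 or s06 at 1.02) and -0.31 against WT (interval -0.78 to 0.16, adjusted p = 0.4). *Smad7* was lower than in *Mbd3* KO by 0.84 to 0.98 on the log2 scale in these 4 lines, with adjusted p from 4.67e-05 to 0.000354, and just failed the fold threshold in each. In MBD3dMBD *Smad7* passed that threshold with DESeq2 (-1.04), RLE scaling (-1.04), upper quartile scaling (-1.13) and no filter (-1.01). It also passed there without library s12 (-1.19), s04 (-1.04) or s05 (-1.03). In MBD2aR181C *Smad7* passed with DESeq2 (-1.06), RLE scaling (-1.06), upper quartile scaling (-1.09) and no filter (-1.01). It also passed there without library s20 (-1.15), s04 (-1.04) or s05 (-1.03). Fits of only both lines, or of all lines but MBD2t, gave a call in MBD2aR181C as well. Called members numbered 4 of 10 in MBD3a beside 32.4% of all genes, 4 in MBD3dMBD beside 35.9%, 4 in MBD2a-GR beside 25.2% and 5 in MBD2aR181C beside 31.1%. These comparisons share the *Mbd3* KO libraries.

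MBD2t and the libraries labelled MBD2a had no member called against *Mbd3* KO by edgeR or DESeq2. In MBD2t 0.0241% of all genes were called and no member had an unadjusted p under 0.05. In MBD2a 5.25% of all genes were called and 4 members had an unadjusted p under 0.05. They were *Bmp7*, which passed the adjusted p (log2 fold change -0.64, adjusted p = 0.0263, edgeR), *Id3* (0.61, interval 0.05 to 1.17, adjusted p = 0.175), *Bmp4* (0.59, 0.03 to 1.15, adjusted p = 0.192) and *Smad6* (0.53, 0.04 to 1.02, adjusted p = 0.184). *Id3* overlapped between both lines, as the lowest MBD2a library had 52.0 CPM and the highest KO library 61.6.

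The direct comparisons of MBD2a with its altered versions ask what the glycine-arginine stretch and the binding of methylated CpGs contribute. Against MBD2a-GR, the libraries labelled MBD2a were lower in *Id3* (log2 fold change -1.37, standard error 0.269, adjusted p = 0.000851, edgeR), *Id4* (-2.54, 0.418, adjusted p = 0.000206) and *Msx2* (-1.02, 0.216, adjusted p = 0.00142). *Id4* had the largest difference of the 10 members there, with 3.03 to 4.66 against 19.1 to 25.9 CPM. The call of *Msx2* held under 6 of 14 alternatives only. It was lost with DESeq2 (-0.98) and other scalings or sets of lines, and without MBD2a library s13 (-0.95) or s14 (-0.86) or MBD2a-GR library s16 (-0.72). *Smad7* was higher by 0.87 (adjusted p = 0.000568) and *Bmp4* by 0.87 (adjusted p = 0.0184), both short of the fold threshold, which *Bmp4* passed without s14 (1.06) or s17 (1.02). *Id2* differed by -0.76 (adjusted p = 0.014), also short of it, and was called without MBD2a library s13 (-1.16). These 3 called members stood beside 18.6% of all genes.

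Against MBD2aR181C, 6 of 10 members were called beside 27.3% of all genes, and all 10 had an unadjusted p under 0.05. *Id3* (log2 fold change -1.62, adjusted p = 9.79e-05, edgeR), *Id4* (-2.01, adjusted p = 0.000628) and *Msx2* (-1.48, adjusted p = 2.96e-05) were lower in the libraries labelled MBD2a. *Bmp4* (1.42), *Smad7* (1.01, adjusted p = 7.66e-05) and *Bmp2* (1.27, adjusted p = 0.0469) were higher. *Bmp2* overlapped between the lines, and its call held under 8 of 14 alternatives and not without library s13, s15, s20 or s21 (adjusted p = 0.11 to 0.158). *Id2* differed by -0.94 (adjusted p = 0.00224), short of the fold threshold, and was called without library s13 (-1.34) or s20 (-1.07). The call of *Smad7* was lost without library s13 (0.83) and without library s21 (0.89). *Mbd2* itself was lower in the libraries labelled MBD2a than in MBD2aR181C (-1.79) and MBD2a-GR (-2.57), by its read counts, which say nothing of the protein, and the part of that difference in the members' values was not tested.

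**Figure D4:**
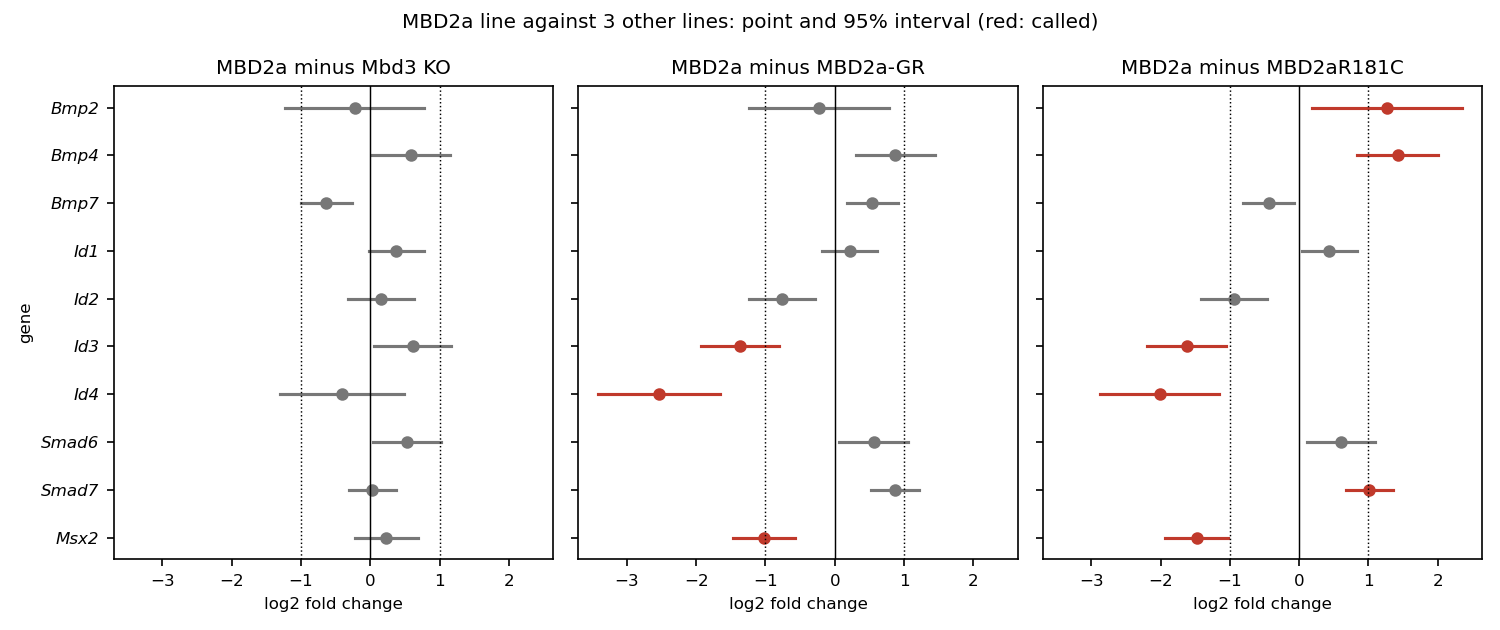
Log2 fold change (points) and 95% interval (lines) of the 10 genes in the libraries labelled MBD2a minus *Mbd3* KO, MBD2a-GR and MBD2aR181C, with called genes in red and dotted lines at the fold threshold. No gene is red against *Mbd3* KO, while *Id3*, *Id4* and *Msx2* are red and lower against both altered versions.

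Of 56 other genes of the pathway, 51 could be tested, and 23 were called in *Mbd3* KO against WT, 10 higher and 13 lower, beside 33.8% of all genes. Their median log2 fold change was -0.03, the same as that of all genes. No gene of the 4 signal-transducing Smads was called, although *Smad1* (-0.74, adjusted p = 3.33e-05, edgeR), *Smad5* (-0.88, adjusted p = 0.000236) and the common partner *Smad4* (-0.57, adjusted p = 2.46e-05) passed the adjusted p below the fold threshold. None of the 6 intracellular inhibitors was called, the largest difference being 0.78 in the corepressor *Ski* (adjusted p = 0.00122). Of the ligands, *Bmp8a* rose by 3.77 and *Bmp8b* by 4.86, from WT means of 0.198 and 0.358 CPM to 2.77 and 10.7 CPM. They are close paralogs, and each overlaps a neighbour on the same strand, *Oxct2a* and *Oxct2b*, so how reads were split is uncertain. Of 10 receptors and co-receptors, the type I receptor *Bmpr1b* (-1.94, adjusted p = 0.00969), the type II receptor *Acvr2a* (-1.43) and the co-receptor *Rgmb* (-3) fell, while the endothelial type I receptor *Acvrl1* (1.16, adjusted p = 0.0171) and the co-receptor *Eng* (2.62) rose. *Acvrl1* was not called without KO library s05 or s06 or WT library s01. The spans of *Acvr2a*, *Acvrl1* and *Eng* overlap those of *Orc4*, *Gm16031* and *Fpgs* on the other strand, and the strand setting of the counting is not given. *Eng* also overlaps *Ak1*, *AL772271.5* and *AL772271.3* on its own strand, so the split of its reads is uncertain as well.

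Among the extracellular antagonists and modulators, genes moved both ways. *Nog*, which traps BMP2 and BMP4 outside the cell, went from a WT mean of 5.70 to 0.891 CPM (log2 fold change -2.67, adjusted p = 5.88e-05, edgeR). *Grem1* (-2.21) and *Sostdc1* (-2.96) were antagonists that also fell, from WT means of 1.24 and 0.889 CPM. *Chrdl2* (3.34), the activin inhibitor *Fstl3* (2.80) and *Nbl1* (1.26) rose. The WT mean of *Chrdl2* was 0.114 CPM, near the level of 3 counts, and its *Mbd3* KO mean 1.18 CPM. Of 9 other BMP-responsive transcription factors, *Msx1* (-4.55), *Msx3* (-7.44), *Tfap2a* (-3.32) and *Hey1* (-1.89) fell and *Dlx3* (2.45), *Gata2* (3.59) and *Gata3* (1.90) rose. *Msx1* and *Msx3*, the paralogs of *Msx2*, thus fell further than *Msx2* itself. *Tfap2a* marks neural crest and surface ectoderm, and *Gata2*, *Gata3* and *Dlx3* are also genes of trophoblast, whose 5 markers were all called higher in *Mbd3* KO (median 3.78). The part of that cell type in these values was not tested. Of the 3 E proteins, the partners of the Id proteins, *Tcf4* (-1.83, adjusted p = 1.76e-05) and *Tcf12* (-1.28, adjusted p = 0.000177) fell, and *Tcf3* did not reach the fold threshold (-0.40, adjusted p = 0.00412).

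In MBD2a 24 of these 51 genes were called against WT, beside 30.6% of all genes, and in MBD2t 22, beside 33.4%. In MBD3a, MBD3dMBD and MBD2aR181C none was called by edgeR, with 1, 1 and 0 genes at an unadjusted p under 0.05. In MBD2a-GR 3 were called, beside 5.16% of all genes, with *Fst* higher (log2 fold change 3.72, adjusted p = 0.0193) and *Acvrl1* (-2.66, adjusted p = 0.013) and *Nbl1* (-1.42, adjusted p = 0.0414) lower. *Fst*, an activin and BMP antagonist, had 9.52, 10.5 and 217 CPM in MBD2a-GR against 4.05, 6.08 and 7.84 in WT, and its highest library was again s18, without which the change was 0.74 (adjusted p = 0.522). Without s18, none of the 3 was called. *Nbl1* was called under 7 of 14 alternatives, and neither it nor *Fst* without WT library s01 or s02, nor *Nbl1* without MBD2a-GR library s17.

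Outside the members, the genes most like each in log2 CPM over the 24 libraries were taken by Pearson's r among 12804 genes whose mean log2 CPM reached 1. For *Id2* they were *8430429K09Rik* (0.986), *Tmem80* (0.984) and *Mthfd2l* (0.978), for *Id3* *Gm15050*, *Nmral1* and *Pimreg* (each 0.983), and for *Id4* *Rab2a* (0.940), *Zbtb22* (0.937) and *Bend5* (0.933). For *Msx2* they were *Mycn* (0.979), *Wnt3* (0.978) and *Ntn4* (0.977), and for *Smad7* *Tns3* (0.966), *Iqsec2* (0.952) and *Ptpru* (0.947). All but *Id2* of these members split the lines into 2 sets that do not overlap, so r also measures that separation. How many of all genes split the lines in this way was not counted. Against WT, 33.8% of all genes were called in *Mbd3* KO, 30.6% in MBD2a and 33.4% in MBD2t. For *Bmp7* they were *Loxl1* (0.910), *Lama4* (0.910) and *Spsb1* (0.907), the first a gene of the extracellular matrix and the second of the basement membrane. For *Bmp2* they were *Creb3l2* (0.926), *Pdgfra* (0.918) and *Slco3a1* (0.909), and for *Bmp4* *Gria3* (0.878), *Colec12* (0.857) and *Plxdc2* (0.849). The weakest were those of *Smad6*, *Ppip5k1* (0.870), *Rabgap1l* (0.826) and *Pdgfc* (0.816), and of *Id1*, *Eci1* (0.774), *AW209491* (0.761) and *Bckdha* (0.751).

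The order of the line means for *Id3* ran from MBD3a (295 CPM) through MBD3dMBD (274), WT (249), MBD2aR181C (247) and MBD2a-GR (207) to MBD2a (80.2), *Mbd3* KO (52.5) and MBD2t (49.6). Each line overlapped with its neighbour in this order except MBD2a-GR and MBD2a. For *Id4* and *Msx2* the same gap separated the lines, between MBD3a (14 CPM) and *Mbd3* KO (5.26) for *Id4* and between MBD2a-GR (27.0) and MBD2a (13.3) for *Msx2*. For *Smad7* it was between MBD2t (50.1) and MBD2a-GR (32.3). MBD2t also lay wholly below *Mbd3* KO in *Smad7*, *Msx2*, *Id4* and *Id1*, by differences that did not pass the test. In the other members these lines overlapped. The MBD2t libraries share a clone and their spread leaves out differences between clones, so this separation was not taken as a difference between the lines. How many of all genes were separated in this way was not counted, and 0.0241% of all genes were called in MBD2t against *Mbd3* KO. In *Id1*, *Id2* and *Smad6*, each line overlapped with its neighbour in the order of means.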

How the data were processed

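RNA was poly(A)-selected, made into directional libraries and sequenced as 150-bp single-end reads. The authors trimmed the reads with Trim Galore 0.6.6, aligned them with STAR to mm9, and deposited raw read counts per gene, made with QuasR on the gencode annotation of NCBIM37. The strand setting of the counting is not given in the sources used here. Columns were matched to lines by name. Their names number the libraries from s01 to s24 and give no replicate number. 6 ChIP-seq libraries were not analysed here.

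The counts were fitted in 1 model of all 24 libraries with edgeR 4.0.16 (R 4.3.3; TMM scaling, filterByExpr by line, quasi-likelihood F test), with Benjamini-Hochberg adjustment over 16582 genes. Calls needed an adjusted p under 0.05 and a log2 fold change beyond 1 either way. Alternatives were DESeq2 1.42.0, RLE and upper quartile scaling, no filter, no fold change threshold, fewer lines, each library left out in turn and, chosen after seeing the data, the legacy quasi-likelihood test and the alternatives of the other pathway genes. With 3 libraries against 3, an exact permutation test cannot go below p = 0.1, so none was used. The test was tried on simulated data. No pair of libraries agreed within sampling noise. The chi-square per gene, about 1 under sampling noise alone, was 3.3 to 6.37 within MBD2t and 10.2 to 279 within other lines.

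The members and gene lists were chosen with earlier results of these data known. Named genes were the members, other pathway genes called in *Mbd3* KO or MBD2a-GR against WT, the 3 genes most like each member, and *Mbd3* and *Mbd2*. Levels per kilobase used the exon union of gencode vM1. Promoter sequences are those of RefSeq on GRCm38.p6. Sox1, a listed marker, was not used here. One called gene of the pathway list is not reported here by name.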

Additional observations from a re-analysis of the deposited data

How the results depend on the processing

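No paired analysis was possible because the columns of the count table carry no replicate number. Of 41 called values of the members, 540 of their 570 alternatives kept the call and direction. Of 109 uncalled values, 52 of 1510 alternatives gave a call. The alternative without a fold change threshold uses the main fit, so it can add calls but never lose them. It is included in each count of alternatives given here and above. With no fold change threshold, members called rose to 7 in MBD2a against MBD2a-GR, 1 in MBD2a against *Mbd3* KO and 9 in MBD2a against WT. In MBD2a-GR against WT, the count was 0 when only both lines were fitted, with 13 genes called in all, and 0 to 1 with single libraries left out, the 0 without s18 (121 genes called) or s02 (252 genes). Other pathway genes called there were also 0 with both lines only, and 0 to 5 with single libraries left out. They were 0 without s18, 1 without s01 or s02 and 5 without s16. The cause of these changes was not tested, beyond the smaller number of libraries. *Bmp2* in MBD2a-GR against *Mbd3* KO turned from 0.01 to -1.07 without s18, in a range of -1.07 to 0.36 over the libraries left out. Upper quartile scaling moved the median log2 fold change of all genes by -0.149 in MBD3dMBD, -0.112 in MBD2a-GR and -0.117 in MBD2aR181C against *Mbd3* KO, and by 0.12 and 0.124 in MBD2a against MBD2a-GR and MBD2aR181C. Among the 10 members, depth limited *Bmp2* most, at 62 counts in its lowest library.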
